A study of Mus musculus with 3 samples.

Results

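Lyve1-positive macrophages of mouse dorsal skin were picked out of 3 single-cell libraries, and they numbered 1336 of 7202 macrophages and of 16604 cells kept in all. A macrophage was a cell with at least 1 UMI (1 captured mRNA molecule) for 4 or more of the 7 genes C1qa, C1qb, C1qc, Ms4a7, Pf4, Csf1r and Mrc1, with no Cd3e or Cd3d UMI and fewer than 5 Krt14 and Krt5 UMIs together. Members were chosen by their Lyve1 count alone, as macrophages with 2 or more Lyve1 UMIs: 320 WT_Ctrl cells, 370 WT_UV cells and 646 RP_UV cells. The remaining macrophages held no Lyve1 UMI (1418, 2117 and 1679 cells in the same order) or exactly 1 (171, 162 and 319 cells). The 5214 macrophages without a Lyve1 UMI, called Lyve1-zero here, served as the comparison.

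Each group was 1 library of CD45+ bead-enriched cells from the back skin of male C57Bl/6 mice aged 8 weeks, with the hair cycle in telogen. WT_Ctrl was wild-type skin without UVB, WT_UV was wild-type skin after 3 UVB exposures, and RP_UV was skin of RP mice after the same 3 exposures. Both irradiated samples were collected at the same time after UVB, per the paper. RP mice carry Rosa26-rtTA and Tre-Ptgs2, so that doxycycline turns on rat Ptgs2, the gene of Cox-2, in all tissues that use the Rosa26 promoter and not in macrophages alone. The paper describes doxycycline for RP mice and does not state it for the wild-type libraries, so drug and genotype cannot be told apart. Each wild-type group had an n of 1 and RP_UV came from a single RP mouse, so the animal and the group cannot be told apart. WT_Ctrl and RP_UV name the same sequencing run in their labels and WT_UV another, so in any contrast with WT_UV the run and the group cannot be told apart. With 1 library per group, no difference between groups has a replicate check.

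Lyve1 encodes a hyaluronan receptor that is best known from lymphatic vessels but is also carried by a class of resident macrophages. In skin and other tissues, such macrophages lie along blood vessels and collagen, are long-lived, take up debris and proteins, and carry little MHC class II compared with neighbouring resident macrophages. Their usual companions in expression are Folr2, a folate receptor, Cd163, a haemoglobin scavenger receptor, Timd4, a phosphatidylserine receptor for apoptotic cells, and F13a1, a clotting-factor transglutaminase. Position along vessels was not measured in these dissociated cells, so "perivascular-like" describes their genes and not their place.

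The 3 libraries held 5977 to 7240 barcodes and 34985549 to 82722013 UMIs, and WT_UV was the deepest. Lyve1-positive cells had a median of 4096 UMIs in WT_Ctrl, 11573 in WT_UV and 4888 in RP_UV, against 3840, 11647 and 4839 in Lyve1-zero macrophages of the same libraries. Between 8 and 11 barcodes were shared by any pair of libraries, and 0 of these were Lyve1-positive macrophages.

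Lyve1-positive cells made up 16.8% of WT_Ctrl macrophages (exact binomial 95% interval 15.1 to 18.5), 14.0% of WT_UV macrophages (12.7 to 15.4) and 24.4% of RP_UV macrophages (22.8 to 26.1). These intervals, like the others given for levels and folds, cover counting error only. The gate counts raw UMIs and is therefore easier to pass in the deeper WT_UV library. With each cell thinned to 2000 UMIs the shares were 10.5% (9.06 to 12.1), 4.63% (3.85 to 5.52) and 13.4% (12.03 to 14.8), so the gap below WT_Ctrl widened in WT_UV. The macrophage gate was applied before thinning and is also easier to pass at greater depth, so these shares correct for depth in the Lyve1 count only. With 5 of 7 macrophage genes asked for, WT_UV held 2376 macrophages in place of 2649, and 369 Lyve1-positive cells in place of 370. The Lyve1 level over all macrophages, in CPM (UMIs scaled to a common library total), was 199 for WT_Ctrl with an exact Poisson 95% interval from 189 to 209. For WT_UV it was 73.3 (70.5 to 76.2), and for RP_UV 237 (229 to 245). Over all kept cells rather than macrophages the shares were 6.03%, 7.08% and 10.6%, where WT_Ctrl and not WT_UV was lowest. Lyve1 chose these cells, so its values describe the gate and were not tested.

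**Figure D1:**
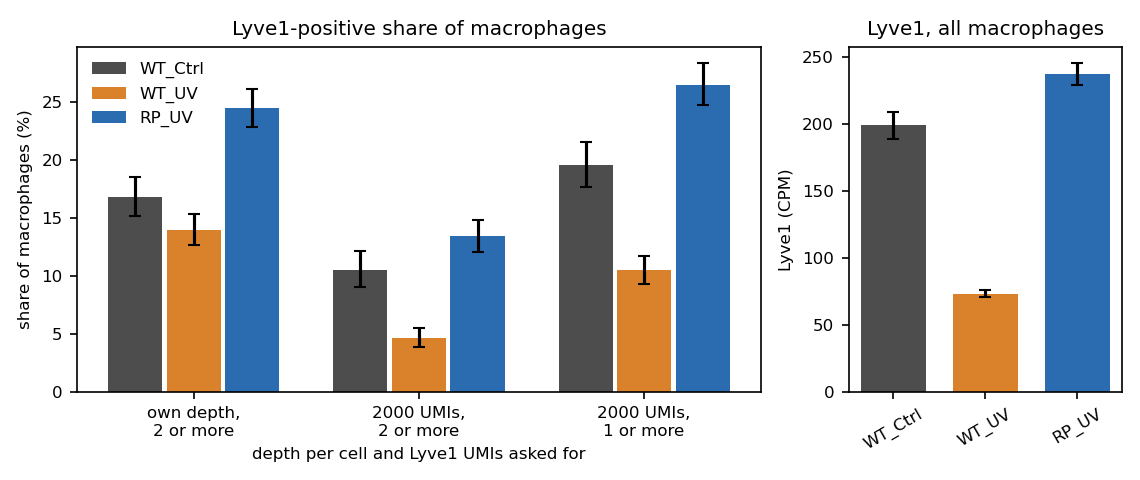
Share of macrophages in percent with 2 or more Lyve1 UMIs at their own depth, and with 2 or more or 1 or more after thinning to 2000 UMIs, and (right) the Lyve1 level over all macrophages in CPM. Each bar is 1 library and the error bars are 95% counting intervals; RP_UV is highest and WT_UV lowest in each set of bars.

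Cells just inside the gate, with exactly 2 Lyve1 UMIs, numbered 101 in WT_Ctrl, 87 in WT_UV and 194 in RP_UV, and the median Lyve1-positive cell had 3, 4 and 4 UMIs. Cells just outside it, with 1 UMI, numbered 171, 162 and 319. Free Lyve1 RNA was low: 0 T cells, 0 keratinocytes and 0 neutrophils held 2 or more Lyve1 UMIs in any library. For keratinocytes, with 853 WT_Ctrl, 245 WT_UV and 627 RP_UV cells, counts of 0 allow shares of up to 0.352%, 1.22% and 0.479% when 3 counts are taken as the limit, at median depths of 6149, 11346 and 6769 UMIs. Neutrophils numbered only 10 in WT_Ctrl and 30 in WT_UV, and T cells 32 in RP_UV. The same limit is 30%, 10% and 9.38% there, so those counts of 0 say little. Another 6, 19 and 18 kept cells outside the macrophage gate passed the Lyve1 threshold and were not used.

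The name was checked against markers of the cells that could share Lyve1. Lymphatic endothelial genes were near 0, with a summed level over 6 genes of 2.16 CPM in WT_Ctrl, 2.16 in WT_UV and 16.9 in RP_UV, and Flt4 and Ccl21a were at 0 in all 3 libraries. The 6 blood endothelial genes summed to between 6.49 and 21.6 CPM and the 4 pericyte genes to between 2.56 and 5.81 CPM. Neutrophil genes differed by library: the 6 genes summed to 38.9 CPM with 5 of them at 0 in WT_Ctrl, 52.9 with 3 at 0 in WT_UV, and 443 with 1 at 0 in RP_UV. Mast cell genes summed to 18.02, 35.6 and 105 CPM in the same order. Dendritic cell genes summed to 293, 338 and 116 CPM over 6 genes, of which Cd209a held 279, 326 and 109 CPM and Clec9a was at 0 in all 3 libraries. The 6 keratinocyte genes summed to 149, 183 and 149 CPM, the 6 fibroblast genes to 64.2, 79.0 and 65.2 CPM and the 6 T cell genes to 10.8, 9.24 and 6.33 CPM. The part of these cell types in the values that follow was not tested, except where 1 of 2 settings is given. The first left out S100a8- or S100a9-bearing cells. The second left out cells of other lineages, those with 2 or more UMIs of the endothelial, pericyte, keratinocyte, fibroblast, T cell or mast cell genes. Dendritic cell genes were in neither setting.

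The other 5 marker genes of the class were all detected. In cells thinned to 2000 UMIs, at least 3 of Folr2, Ednrb, F13a1, Cd209f and Fcna were found in 96.1%, 90.1% and 88.9% of the Lyve1-positive cells of WT_Ctrl, WT_UV and RP_UV. In Lyve1-zero macrophages the same was true of 45.6%, 22.7% and 31.6%. The 5 genes were proposed with earlier results of these data in view, so they label the cells and give no independent support. The next tests asked which genes outside the gate separated Lyve1-positive from Lyve1-zero macrophages in all 3 libraries alike. These 5 markers stayed among the genes tested, so their p-values give no independent support either. UMIs were summed per library and class and compared with edgeR's quasi-likelihood test, with the library as a block, leaving out the 12 genes of the gate. Of 10929 genes tested, 1406 passed an adjusted p of 0.05 (12.9%), of which 646 were higher (5.91%) and 760 lower (6.95%) in Lyve1-positive cells. Without the library as a block 0 genes passed in edgeR, with 1230 at an unadjusted p under 0.05, and DESeq2 with the block called 989. The 3 libraries, not the cells, were the replicates here, although each was a different group. The p-values measure only how far the difference between the classes varied from library to library.

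Resident macrophage identity genes were higher in Lyve1-positive cells. Of the 15 genes of that list, 12 rose, 0 fell and 3 did not pass, with a median log2 difference of 0.99 against 0.00 over all genes tested. Among all genes tested, 5.91% rose and 6.95% fell, and the list counts further down stand beside these shares. The 12 include the 5 markers that label the class, and of the other 10 genes 7 rose (median 0.87). Fcna, which encodes ficolin A, a lectin that starts the complement cascade, had the largest positive difference of the genes named by the rule: 667 CPM in WT_Ctrl, 257 in WT_UV and 456 in RP_UV, against 45.6, 40.1 and 68.3 in Lyve1-zero cells (log2 3.04 ± 0.23 SE, edgeR adjusted p = 0.000954). The lowest Lyve1-positive library lay above the highest Lyve1-zero library. Timd4 was at 203, 75.7 and 60.7 CPM against 33.0, 8.65 and 8.61 (log2 2.83 ± 0.13, edgeR adjusted p = 0.000301). Its level in Lyve1-positive cells was highest in WT_Ctrl, and the groups did not overlap. The share of all genes tested without such overlap was not counted, so here and below this only describes the values.

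Ednrb, the endothelin receptor type B, varied little across libraries, at 1020 CPM in WT_Ctrl, 999 in WT_UV and 951 in RP_UV, against 226, 132 and 207 in Lyve1-zero cells (log2 2.41 ± 0.16, edgeR adjusted p = 0.000727). Its level in Lyve1-positive cells differed by at most 1.07-fold between any 2 libraries (1.01 to 1.14). Folr2 was at 2064, 1105 and 1092 CPM against 690, 295 and 502 (log2 1.51 ± 0.15, edgeR adjusted p = 0.00167), and F13a1 at 3634, 3145 and 2036 CPM against 2195, 1232 and 1026 (log2 0.99 ± 0.13, edgeR adjusted p = 0.00463). For F13a1 the groups overlapped, since the lowest Lyve1-positive library was under the highest Lyve1-zero library. The C-type lectins Cd209f (log2 1.64) and Cd209g (1.46), the haemoglobin receptor Cd163 (0.90), the growth-arrest protein and Mertk ligand Gas6 (0.98) and the selenium carrier Selenop (0.72) also rose. Igf1 (log2 0.31, edgeR adjusted p = 0.544), Cd209d (0.22, edgeR adjusted p = 0.557) and the scavenger receptor Stab1 (0.74, edgeR adjusted p = 0.0653) did not pass.

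**Figure D2:**
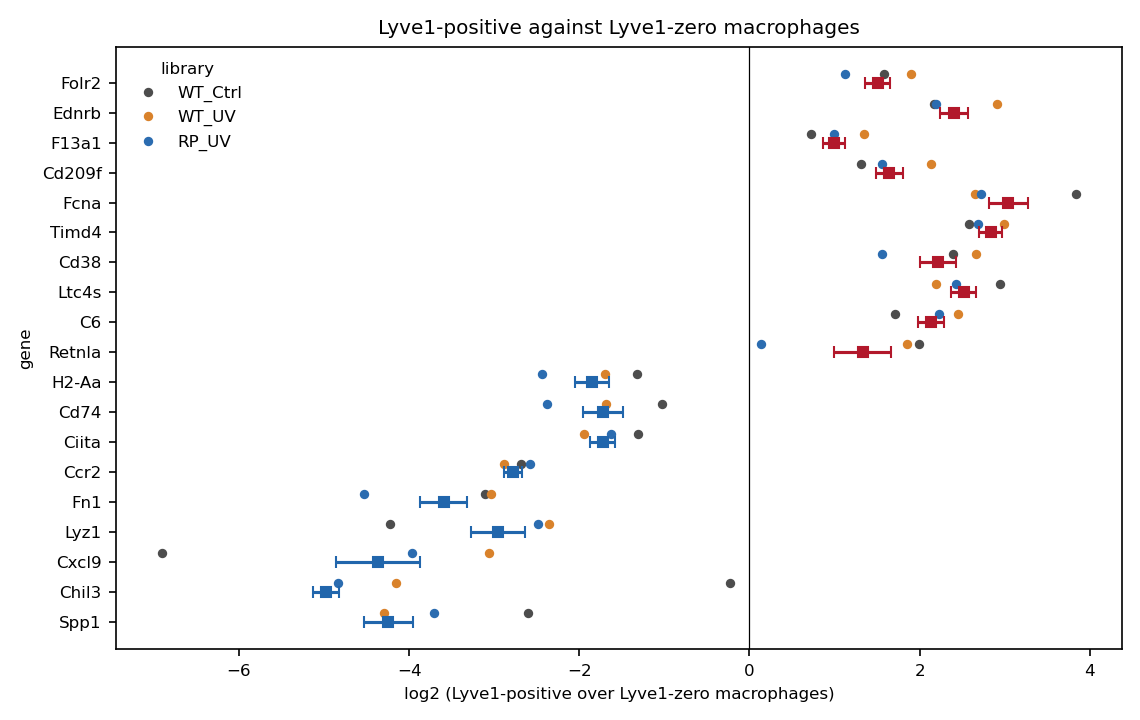
Log2 difference between Lyve1-positive and Lyve1-zero macrophages for genes named by the rule and lists. Squares are the edgeR estimate with its standard error over 3 libraries and small points the log2 ratio within each library after adding 1 CPM; identity genes such as Fcna (3.04) lie to the right and MHC class II and recruited-monocyte genes such as Ccr2 (-2.78) to the left.

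Outside the identity list, the genes with the largest positive differences included enzymes and secreted proteins. Ltc4s, the synthase of the cysteinyl leukotriene LTC4, was at 457 CPM in WT_Ctrl, 123 in WT_UV and 190 in RP_UV, against 58.6, 26.2 and 34.6 in Lyve1-zero cells (log2 2.52 ± 0.15, edgeR adjusted p = 0.000427). Cd38, an enzyme that breaks down NAD, was at 211, 88.1 and 119 CPM against 39.3, 13.1 and 39.8 (log2 2.22 ± 0.21, edgeR adjusted p = 0.00161). C6, a component of the complement membrane attack complex, was at 360, 228 and 134 CPM against 110, 41.0 and 27.7 (log2 2.13 ± 0.15, edgeR adjusted p = 0.000886). For each of these 3 genes the libraries of the classes did not overlap. They were picked for large differences, and the share of all genes without overlap was not counted. Rcn3, a calcium-binding protein of the endoplasmic reticulum (log2 2.28), Calml4 (2.26), Cmah, a sialic acid hydroxylase (2.24), and Lrg1, a secreted leucine-rich glycoprotein (2.10), completed the 10 highest.

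Complement genes leaned the same way: 8 of 11 rose, 1 fell and 2 did not pass (median log2 0.78). All genes tested rose in 5.91% of cases and fell in 6.95%. Vsig4, a receptor for C3 fragments, was low but higher in each library (23.1 CPM in WT_Ctrl, 13.8 in WT_UV and 47.8 in RP_UV, against 5.09, 1.17 and 6.89; log2 2.85, edgeR adjusted p = 0.00125). Activating components rose too, such as C4b (log2 1.40), C2 (1.29) and Cfb (1.21), whereas C3 itself, the central component, fell (log2 -1.53, edgeR adjusted p = 0.00436).

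Iron-handling genes rose in 5 of 10 cases and fell in 0. Hmox1, haem oxygenase 1, which releases iron from haem, was at 500.2 CPM in WT_Ctrl, 697 in WT_UV and 1064 in RP_UV, against 270, 276 and 481 (log2 1.10, edgeR adjusted p = 0.0017). Slc40a1, the iron exporter ferroportin (log2 1.93), Cp, the ferroxidase ceruloplasmin (1.75), Trf, transferrin (1.10), and Slc11a1, a metal transporter of phagosomes (0.79), were the other 4. Scavenger and efferocytosis genes split, with 6 of 14 higher and 4 lower, where 5.91% of all genes tested were higher and 6.95% lower. Besides Timd4, Cd163 and Gas6, the higher genes were Cd36, a fatty acid and lipoprotein receptor (log2 1.80), Colec12, a scavenger lectin (1.32), and Mertk, the efferocytosis kinase that Gas6 activates (0.75). Axl, the related kinase, fell (log2 -2.13), as did Itgb5, an integrin subunit of apoptotic cell uptake (-2.59).

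MHC class II genes were lower in Lyve1-positive cells without exception: 7 of 7 fell, with a median log2 of -1.84. MHC class II molecules present peptides to CD4+ T cells, and Ciita is the coactivator that switches their genes on. H2-Aa, the alpha chain of I-A, was at 3576 CPM in WT_Ctrl, 1728 in WT_UV and 374 in RP_UV, against 8969, 5604 and 2033 in Lyve1-zero cells (log2 -1.85 ± 0.20, edgeR adjusted p = 0.00219). Ciita was at 64.9, 32.4 and 7.92 CPM against 162, 128 and 26.5 (log2 -1.72 ± 0.15, edgeR adjusted p = 0.00122). Both classes were highest in WT_Ctrl and lowest in RP_UV, so each Lyve1-positive library was lower than its own Lyve1-zero partner while the ranges overlapped. Single cells had the same order: in cells thinned to 2000 UMIs, the 7 genes had a median of 26, 10 and 1 UMIs per Lyve1-positive cell and 88, 52 and 2 per Lyve1-zero cell.

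Promoter windows of this group are shown because H2-Aa and H2-Eb1 differed by nearly the same fold in each comparison. They were taken from RefSeq (GRCm38.p6) and run from 250 bases before to 50 after the start; capitals mark CTGATTGG, an inverted CCAAT box known as the Y box of class II promoters. H2-Aa lies at chr17:34287774-34288073 on the minus strand, with the motif beginning 51 bases before the start, and H2-Eb1 at chr17:34305617-34305916 on the plus strand, with the motif beginning 62 bases before it.
H2-Aa: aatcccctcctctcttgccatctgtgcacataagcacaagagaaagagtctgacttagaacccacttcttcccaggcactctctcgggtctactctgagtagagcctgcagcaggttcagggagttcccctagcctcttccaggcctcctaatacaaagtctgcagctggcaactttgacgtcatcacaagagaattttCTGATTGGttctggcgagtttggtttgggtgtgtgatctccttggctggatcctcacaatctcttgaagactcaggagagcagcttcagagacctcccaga
H2-Eb1: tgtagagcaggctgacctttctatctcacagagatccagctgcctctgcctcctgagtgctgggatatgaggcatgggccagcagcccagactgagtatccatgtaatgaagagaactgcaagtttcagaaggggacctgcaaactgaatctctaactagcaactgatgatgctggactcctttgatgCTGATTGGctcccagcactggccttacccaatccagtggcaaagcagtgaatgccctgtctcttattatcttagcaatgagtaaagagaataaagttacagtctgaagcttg
The letters, searched on both strands (reverse complement CCAATCAG), occur in 4.1% of 32851 promoters of this table. The exact letters were not found in the windows of H2-DMa (2 windows) or H2-DMb1, although the shorter core ATTGG (reverse complement CCAAT), which 37.4% of these promoters hold, occurs in H2-DMb1 and in 1 window of H2-DMa. No window is shown for H2-Ab1, Ciita and Cd74, so the letters were looked up in 4 of the 7 genes. A match describes the sequence and is not a bound site.

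Genes of recruited monocytes were also lower. Of the 8 genes tested of 10, 6 fell, 0 rose and 2, Plac8 among them, did not pass, with a median log2 of -2.76. Ccr2, the chemokine receptor that brings monocytes out of the blood, was at 69.2 CPM in WT_Ctrl, 92.8 in WT_UV and 28.2 in RP_UV, against 449, 692 and 173 (log2 -2.78 ± 0.10, edgeR adjusted p = 0.000109). Fn1, fibronectin, was at 16.6, 19.1 and 4.75 CPM against 150, 164 and 132 (log2 -3.59 ± 0.28, edgeR adjusted p = 0.000957). For both genes every Lyve1-positive library was below every Lyve1-zero library, a trait whose share over all genes was not counted. Chil3, a chitinase-like protein of monocytes and alternatively activated macrophages, had the lowest estimate of the genes named by the rule (log2 -4.97, edgeR adjusted p = 5.94e-05), although in WT_Ctrl it was near 0 in both classes (0 and 0.175 CPM); it was 1.18 against 37.8 CPM in WT_UV and 12.4 against 383 in RP_UV.

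Other genes among the 10 lowest were Cxcl9, an interferon-gamma-induced T cell chemokine (log2 -4.36), Spp1, osteopontin (-4.24), Ear2, an eosinophil-associated ribonuclease (-3.40), Mmp12, the macrophage elastase (-2.97), and Lyz1, a lysozyme (-2.95). Gngt2, Gpr141 and Rgs1, which act in G protein signalling, stood between -3.36 and -3.08. Lyz1 shares sequence with Lyz2, and reads that fit both may be split. Cell cycle genes were lower in 7 of 11 tested and higher in 0, among them Birc5, survivin (log2 -1.84), and Mki67, the Ki-67 antigen (-1.31). Top2a, the mitotic topoisomerase, did not pass.

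Matrix and vessel genes divided within the list, 4 higher, 5 lower and 5 not passing of 14. Pdgfc, a platelet-derived growth factor, was at 90.8 CPM in WT_Ctrl, 66.5 in WT_UV and 66.0 in RP_UV, against 26.7, 20.6 and 28.5 (log2 1.52, edgeR adjusted p = 0.00125). The gelatinase Mmp9 (log2 1.65), the protease inhibitor Timp2 (0.77) and the growth factor Hbegf (0.78) were the other higher genes, and the membrane-bound protease Mmp14 was the lowest (-3.72). Chemokines and cytokines divided too, with 3 of 18 higher and 3 lower. Both lists stand beside 5.91% higher and 6.95% lower over all genes tested. Ccl6, a CC chemokine, was at 2645, 2381 and 3407 CPM against 867, 527 and 1171 (log2 1.75, edgeR adjusted p = 0.00108), and Ccl9 (0.69) and the eosinophil attractant Ccl24 rose with it. The inflammatory genes Tnf (log2 -1.37), Ccl3 and Cxcl16 (-1.44) fell.

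In the remaining lists the following counts were found, beside 5.91% higher and 6.95% lower over all genes tested. Interferon-stimulated genes were higher in 6 of 11 and lower in 0, led by Ifi27l2a (log2 1.499), an interferon-induced mitochondrial protein. Leukotriene and prostaglandin genes were higher in 3 of 15 (Ltc4s, the 5-lipoxygenase Alox5 and the thromboxane synthase Tbxas1) and lower in 2 (the receptors Ptger3 and Ptgir). Alternative activation genes were higher in 2 of 9, Retnla and Clec10a, and lower in 4. Immediate early genes were higher in 2 of 18 (Egr1 and Klf2) and lower in 1 (Zfp36), p53 targets lower in 5 of 13, and clock genes higher in 3 of 13 and lower in 1. Of the transcription factors, Id3 alone passed (log2 -1.61) and 11 of 12 did not; Maf (log2 0.38, edgeR adjusted p = 0.0955), linked to resident macrophages, was among them.

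Some genes no longer passed when 1 library was left out, which also leaves fewer libraries in the test; their direction was the same. Without RP_UV, Cd163 (log2 0.96), Gas6 (0.95), Cbr2 (0.91), Selenop (0.77), Timp2 (0.77), Hbegf (0.78), Clec10a (0.93), Egr1 (0.79), Zfp36 (-0.84), Mki67 (-0.75), Birc5 (-1.47) and Id3 (-1.44) no longer passed. Without WT_UV the same was true of Retnla (1.06), Slc40a1 (0.97), Selenop (0.50), Tnf (-0.92), Zfp36 (-0.41), Ptgir (-1.25) and Id3 (-1.27), and without WT_Ctrl of Retnla (0.99) and Slc40a1 (2.08). The 7 MHC class II genes, Ccr2, Fcna, Timd4, Ednrb and Folr2 passed without any 1 library. Fcna, Ednrb and Folr2 are among the markers that label the class, so this gives no independent support for the label.

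Levels of some genes also followed the amount of Lyve1 within the macrophages. In cells thinned to 2000 UMIs, Fcna was at 61.9 CPM with 0 Lyve1 UMIs, 414 with 1, 739 with 2 and 1024 with 3 or more in WT_Ctrl. In RP_UV it went from 124 to 402, 614 and 594 CPM, without a further step at the end. H2-Aa went the other way, from 8615 to 4510, 3580 and 2220 CPM in WT_Ctrl and from 1749 to 451, 257 and 176 CPM in RP_UV. In WT_UV Fcna went from 55.4 to 265, 395 and 429 CPM and H2-Aa from 5046 to 2221, 2048 and 1205 CPM. Cells with a single Lyve1 UMI lay between the classes for both genes. Other class markers did not all rise past 1 Lyve1 UMI. With 1, 2 and 3 or more, Folr2 in WT_UV was at 1074, 976 and 1045 CPM and Cd209f in RP_UV at 1324, 1188 and 1041 CPM. F13a1 was highest with 3 or more in each library. These are descriptions over cells of single libraries, with no test.

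**Figure D3:**
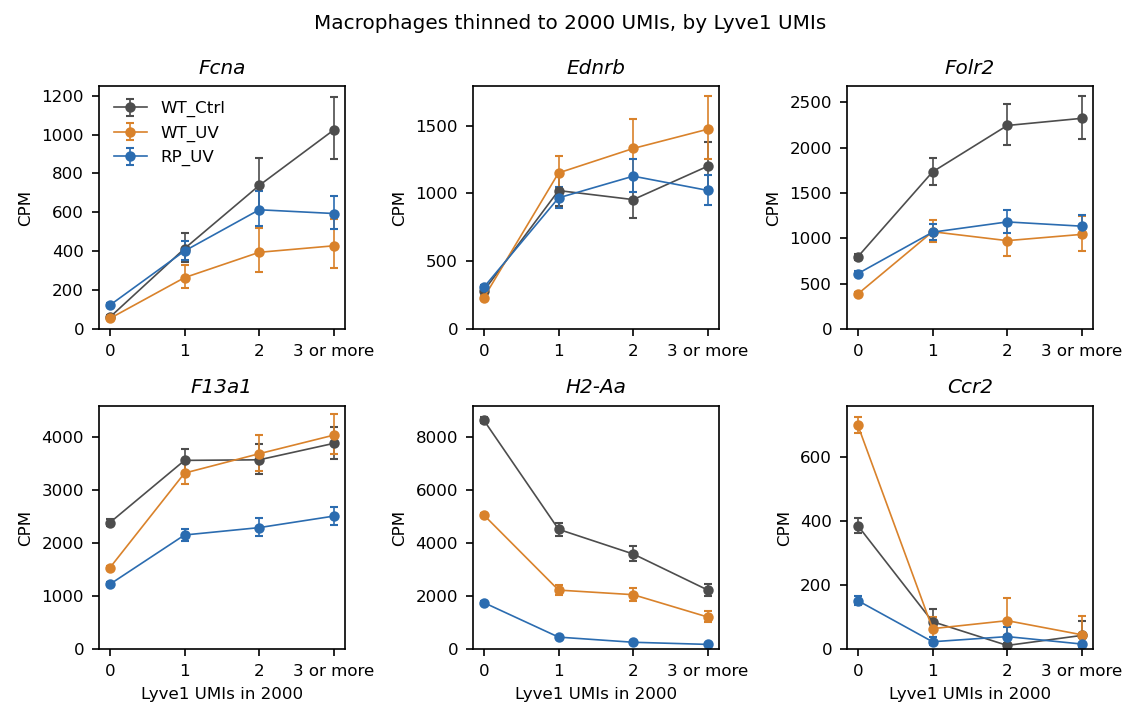
Level in CPM, on linear axes from 0, of 6 genes in macrophages thinned to 2000 UMIs, by the number of Lyve1 UMIs per cell (0, 1, 2, 3 or more), with 1 line per library and 95% counting intervals. Fcna goes up from 61.9 to 1024 CPM and H2-Aa down from 8615 to 2220 CPM in WT_Ctrl.

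The remaining comparisons set the libraries side by side within Lyve1-positive cells, which asks how UVB and Cox-2 overexpression differed from the control in this class. No test was possible, so a gene was counted as different at 2-fold or more with at least 20 CPM in either library. By that measure WT_UV had 107 genes higher (1.77% of 6060) and 102 lower (1.68%) than WT_Ctrl. RP_UV had 132 higher (2.17% of 6084) and 143 lower (2.35%) than WT_UV, and 306 higher (4.96% of 6166) and 274 lower (4.44%) than WT_Ctrl. The 3 contrasts share libraries and are not independent of each other. The median log2 difference over all genes was 0.01, 0.02 and 0.03.

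Most resident identity genes stayed within 2-fold between libraries, as did most of all genes. Over all genes, 1.77% were 2-fold higher and 1.68% lower in WT_UV than in WT_Ctrl. For RP_UV the shares were 2.17% and 2.35% against WT_UV, and 4.96% and 4.44% against WT_Ctrl. Of 15 genes, 0 were 2-fold higher and 2 lower in WT_UV than in WT_Ctrl (Fcna and Timd4), 0 differed between RP_UV and WT_UV, and 2 were lower in RP_UV than in WT_Ctrl (Timd4 and Ccl24). Gas6 stayed between 1214 and 1281 CPM and Cbr2, a carbonyl reductase, between 1045 and 1144 CPM. Timd4 was detected in 49.1% of Lyve1-positive WT_Ctrl cells, 41.1% of WT_UV cells and 22.8% of RP_UV cells, or in 30.4%, 16.7% and 12.4% at 2000 UMIs per cell.

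Of the 17 gene lists, MHC class II had the lowest median in RP_UV against either wild-type library. The 7 genes together came to 18734 CPM in WT_Ctrl, 9193 in WT_UV and 2168 in RP_UV. Relative to WT_Ctrl, WT_UV had 4 of 7 genes at least 2-fold lower (median log2 -1.01), but the median was -0.79 in thinned cells, -0.63 with cells of other lineages left out and -0.56 with a limit of 4000 genes, each under 2-fold. RP_UV had 7 of 7 lower than WT_UV (median -2.04) and than WT_Ctrl (median -3.07). H2-Aa was 2.07-fold lower in WT_UV than in WT_Ctrl (1.999 to 2.14) and 4.62-fold lower in RP_UV than in WT_UV (4.37 to 4.89). Cd74, the invariant chain that guides class II molecules, was at 8852, 4234 and 968 CPM. H2-DMa and H2-DMb1, which edit the bound peptide, were at 311, 215 and 99.2 CPM and at 154, 144 and 58.6 CPM, a smaller step than for the antigen-presenting chains. H2-Aa was detected in 85.9%, 91.1% and 31.4% of Lyve1-positive cells at their own depth and in 83.8%, 68.2% and 20.9% at 2000 UMIs, where WT_UV lay below WT_Ctrl. The dendritic cell genes above were also lowest in RP_UV, and their part in the class II values was not tested. Lyve1-zero macrophages shifted in the same direction, with medians of -0.41, -1.27 and -1.91 over the 7 genes for the same 3 contrasts; whether the classes differed was not tested.

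Retnla, a secreted resistin-like protein of alternatively activated macrophages, differed even more. It was at 14549 CPM in WT_Ctrl, 3122 in WT_UV and 215 in RP_UV, which was 4.66-fold lower in WT_UV than in WT_Ctrl (4.57 to 4.76) and 14.5-fold lower in RP_UV than in WT_UV (13.5 to 15.6). It was found in 89.4%, 76.2% and 21.7% of Lyve1-positive cells, or in 88.0%, 62.5% and 15.9% at 2000 UMIs. In Lyve1-zero macrophages Retnla was at 3652, 867 and 196 CPM, so Lyve1-positive cells held 3.98-fold more in WT_Ctrl, 3.60-fold more in WT_UV and 1.10-fold more in RP_UV. Mgl2, a galactose lectin, was at 1535, 1074 and 621 CPM, whereas Il4ra, the interleukin 4 receptor, was at 67.8, 169 and 281 CPM. Of 6 alternative activation genes at the minimum, 1 was higher and 3 lower in RP_UV than in WT_Ctrl. Over all genes, 4.96% were higher and 4.44% lower in that contrast.

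**Figure D4:**
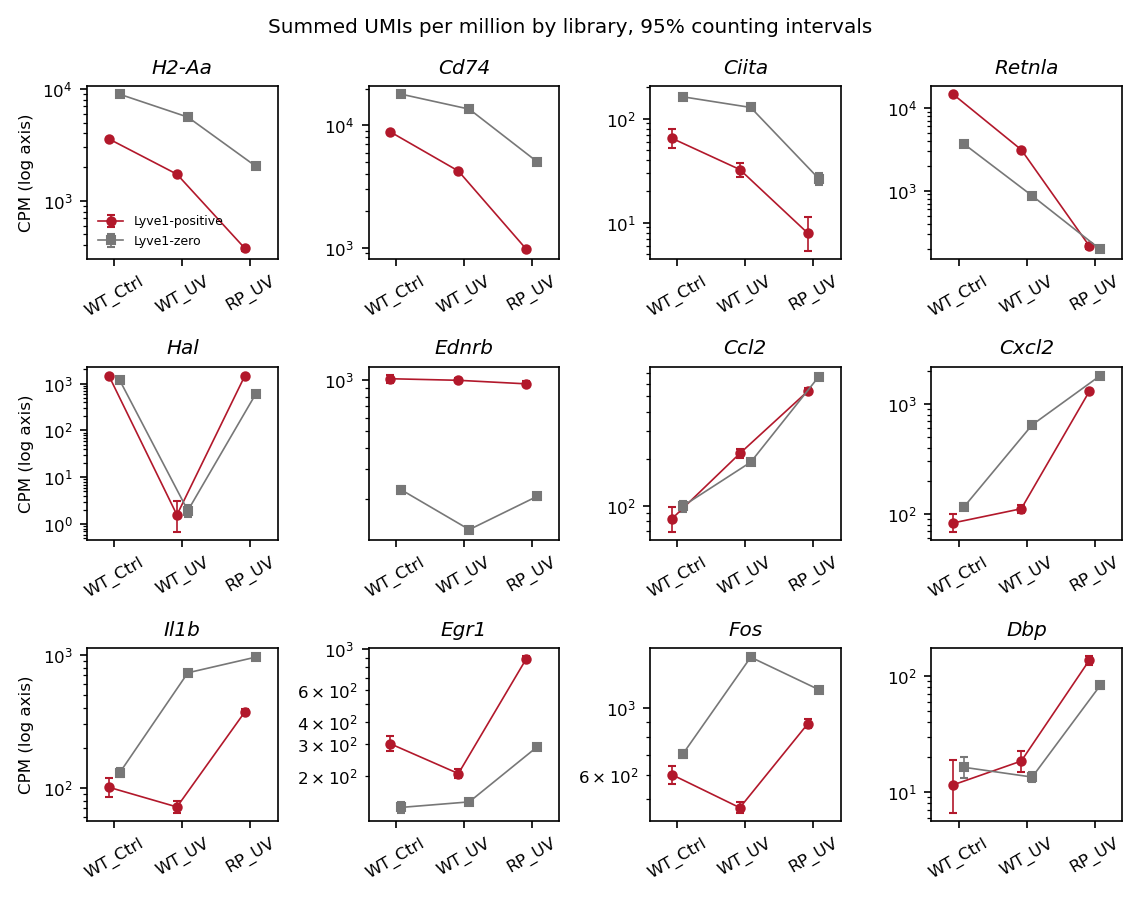
Levels in CPM, on a log axis, of 12 genes in Lyve1-positive (red circles) and Lyve1-zero (grey squares) macrophages of each library, with 95% counting intervals. Class II genes and Retnla step down from WT_Ctrl to RP_UV in both classes, Ccl2 steps up, and Hal is near 0 in WT_UV alone.

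Hal, histidine ammonia-lyase, which makes urocanic acid, a UV-absorbing molecule of the skin, had a pattern of its own. It was at 1464 CPM in WT_Ctrl, 1.57 in WT_UV and 1481 in RP_UV, and it was found in 95.3%, 1.08% and 97.8% of Lyve1-positive cells. WT_UV was 931-fold lower than WT_Ctrl (471 to 2159), while RP_UV and WT_Ctrl differed by 1.01-fold (0.961 to 1.07). Lyve1-zero macrophages held 1170, 1.94 and 606 CPM, and keratinocytes 14.0, 26.6 and 23.8 CPM, so WT_UV was low in macrophages and not in keratinocytes. The RP_UV library was irradiated too. The library with the low value is the one sequenced in the other run, and the run and the group cannot be told apart.

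Monocyte chemoattractants were higher after UVB and higher again in RP_UV. Ccl2, the main ligand of Ccr2, was at 82.9 CPM in WT_Ctrl, 217 in WT_UV and 540 in RP_UV, that is 2.61-fold higher in WT_UV than in WT_Ctrl (2.15 to 3.19) and 2.49-fold higher in RP_UV than in WT_UV (2.32 to 2.69). Ccl7 was at 75.7, 243 and 604 CPM and Ccl12 at 31.0, 183 and 367 CPM, both ligands of Ccr2 as well. The 3 genes shared an order, with no overlap of counting intervals between libraries. Cells with a Ccl2 UMI made up 17.8%, 53.2% and 63.5% of Lyve1-positive cells, or 10.2%, 20.8% and 44.1% when each cell was thinned to 2000 UMIs. Ccl8 was the most abundant chemokine of all, at 8310, 18129.6 and 8865 CPM, a 2.18-fold step in WT_UV. In the cells still Lyve1-positive after thinning (170 in WT_Ctrl and 118 in WT_UV) its log2 was -0.08. Thinned macrophages held less Ccl8 with 2 Lyve1 UMIs than with 1 (8074 against 12558 CPM in WT_Ctrl, 6718 against 11416 in WT_UV). Depth and the choice of cells therefore cannot be told apart here.

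A second set of inflammatory genes was higher in RP_UV while WT_UV stayed near WT_Ctrl. Cxcl2, a neutrophil attractant, was at 82.9 CPM in WT_Ctrl, 112 in WT_UV and 1304 in RP_UV, 11.7-fold higher in RP_UV than in WT_UV (10.7 to 12.8). A single cell held 43.0% of the Cxcl2 UMIs of WT_UV, whereas 47.7% of cells held one in RP_UV, or 39.0% at 2000 UMIs. As a measure of free RNA in RP_UV, 4.94% of keratinocytes (18.4 CPM, median 6769 UMIs) and 21.9% of 32 T cells (2585 CPM, median 1848.5 UMIs) held a Cxcl2 UMI. Cxcl1 (2.88, 3.74 and 78.7 CPM), Ccl4 (23.8, 19.1 and 199 CPM) and Saa3, an acute-phase serum amyloid (0.721, 2.75 and 315 CPM), had the same shape. Over the whole list, 10 of 17 chemokine and cytokine genes were 2-fold higher and 2 lower in RP_UV than in WT_UV (median log2 1.04), and 6 of 14 were higher and 0 lower in WT_UV than in WT_Ctrl (median 0.41). The shares over all genes were 2.17% higher and 2.35% lower, and 1.77% higher and 1.68% lower, in the same order. Lyve1-zero macrophages had medians of 0.98 and 0.58 in the same contrasts. In thinned cells the medians were 0.98 and 0.38 in Lyve1-positive cells and 0.41 and 0.57 in Lyve1-zero macrophages. The Lyve1-positive medians were 1.31 and 0.10 with a limit of 4000 genes, and 0.74 and 0.21 without S100a8- or S100a9-bearing cells. Whether the classes differed was not tested.

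Neutrophil RNA moved with some of these values. In RP_UV, neutrophils held 23429.8 CPM of Cxcl2, and S100a8 and S100a9, the calprotectin genes that define neutrophils, were at 158 and 231 CPM in Lyve1-positive cells, against 0 and 0 in WT_Ctrl and 4.72 and 10.0 in WT_UV. Il1b, the inflammasome cytokine, was at 101, 71.8 and 373 CPM, but it was found in 3.75%, 11.6% and 9.91% of cells, and 10 cells held 98.6%, 87.1% and 53.5% of its UMIs. When cells with any S100a8 or S100a9 UMI were left out, which kept 320, 352 and 568 cells, Il1b turned lower in RP_UV than in WT_UV (log2 -0.72, against 2.36 with them). In the same cells Cxcl2 kept a log2 of 3.88 in RP_UV over WT_UV, Saa3 6.92, Cxcl1 4.04, Ccl4 2.99 and Ccl2 1.24.

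**Figure D5:**
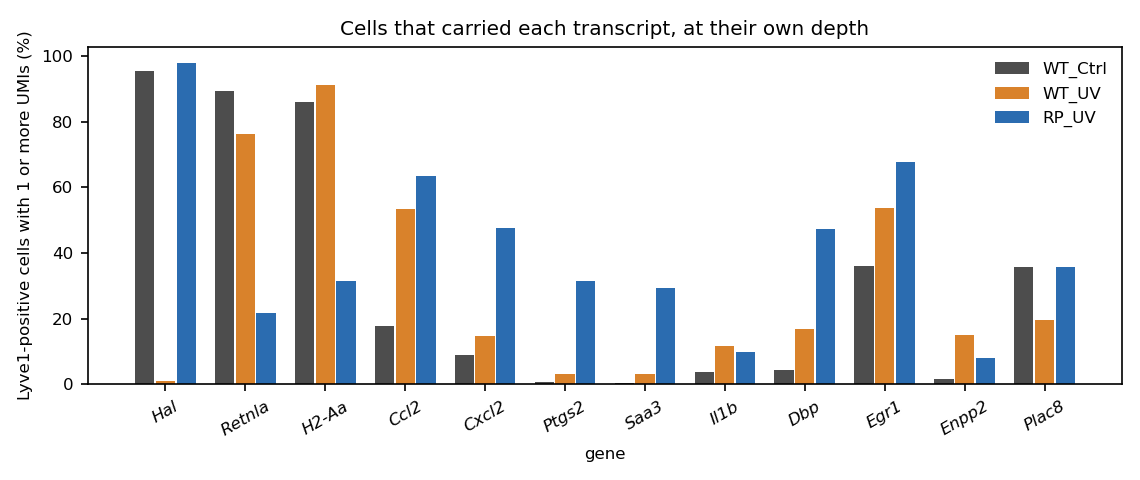
Percent of Lyve1-positive cells with at least 1 UMI of each of 12 genes in WT_Ctrl, WT_UV and RP_UV, not corrected for the greater depth of WT_UV. Hal is found in 95.3%, 1.08% and 97.8% of cells, Cxcl2 in 8.75%, 14.6% and 47.7%, and Il1b in under 12% in each library.

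Ptgs2, the gene that RP mice overexpress, was at 12.3 CPM in WT_Ctrl, 22.0 in WT_UV and 153 in RP_UV, 6.96-fold higher in RP_UV than in WT_UV (5.68 to 8.60). It was found in 0.625%, 3.24% and 31.6% of Lyve1-positive cells, or in 0.353%, 1.64% and 16.6% at 2000 UMIs, and without S100a8- or S100a9-bearing cells the log2 in RP_UV over WT_UV was 1.81. Keratinocytes of RP_UV held 545 CPM, against 7.45 in WT_Ctrl and 6.08 in WT_UV. Neutrophils of RP_UV held 4022 CPM and its 32 T cells 925 CPM, and a Ptgs2 UMI was found in 34.5% of its Lyve1-zero macrophages, 55.0% of its keratinocytes and 28.1% of its T cells. The share in Lyve1-positive cells was below that of Lyve1-zero macrophages and keratinocytes, and at 2000 UMIs below that of the T cells too, so expression by the class and free RNA cannot be told apart. The transgene is the rat gene and the reference is mouse, and how far rat reads are counted as mouse Ptgs2 was not tested. Hpgd, the enzyme that inactivates prostaglandins, was at 329, 222 and 78.1 CPM, 2.84-fold lower in RP_UV than in WT_UV (2.49 to 3.24). Of 11 prostaglandin and leukotriene genes at the minimum, 1 was higher and 4 lower in RP_UV than in WT_Ctrl. Over all genes, 4.96% were higher and 4.44% lower in that contrast. The receptor Ptger4, through which prostaglandin E2 acts, was at 36.8, 44.8 and 59.4 CPM.

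Immediate early and stress genes were higher in RP_UV than in WT_UV, by an amount that changed with the setting. Of 18 genes, 0 passed 2-fold in WT_UV against WT_Ctrl (median log2 -0.10), and 8 were higher and 0 lower in RP_UV than in WT_UV (median 0.87). The shares over all genes were 1.77% higher and 1.68% lower, and 2.17% higher and 2.35% lower. In thinned cells the medians were 0.52 and 0.31, and with a limit of 4000 genes 0.42 and 0.39. The step from WT_Ctrl to WT_UV was then the larger. Both settings summed fewer WT_UV cells, 118 and 252 of 370, so depth and the choice of cells cannot be told apart. With the mean over cells, which keeps all of them, the medians were 0.36 and 0.72. Egr1, an early growth response factor, was at 302, 207 and 891 CPM, 4.31-fold higher in RP_UV than in WT_UV (4.02 to 4.62), with a log2 of 2.10 that was 1.44 in thinned cells. Nfkbia, the NF-kappaB inhibitor that NF-kappaB itself induces, was at 294, 219 and 695 CPM, and Jun at 606, 723 and 1511 CPM. In Lyve1-zero macrophages the medians were 1.07 and -0.30, or 1.25 and -0.29 in thinned cells, and Fos stood at 703, 1474 and 1151 CPM there against 602, 467 and 888 CPM in Lyve1-positive cells. This difference between classes was not tested, since each rests on 1 library per group.

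Clock genes differed in RP_UV as well. Dbp, a transcription factor driven by the circadian clock, was at 11.5 CPM in WT_Ctrl, 18.5 in WT_UV and 136 in RP_UV, 7.38-fold higher in RP_UV than in WT_UV (5.92 to 9.30). Nr1d1, the repressor Rev-erb alpha, was at 27.4, 16.5 and 60.4 CPM, and Per3 and Tef also passed 2-fold. Arntl, the clock activator Bmal1, was lower, at 28.1, 30.5 and 5.01 CPM. Of 8 clock genes at the minimum, 5 were higher and 1 lower in RP_UV than in WT_UV. Over all genes, 2.17% were higher and 2.35% lower in that contrast. Lyve1-zero macrophages had Dbp at 16.3, 13.5 and 82.8 CPM.

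Several further genes were among the 8 highest or lowest by fold. Npl, a sialic acid lyase, was at 109, 353 and 513 CPM, and Fabp5, a fatty acid binding protein, at 30.3, 415 and 522 CPM, though 10 cells held 71.0% of the Fabp5 UMIs of WT_UV. Enpp2, autotaxin, the enzyme that makes lysophosphatidic acid, was at 5.05, 101 and 60.4 CPM, with 68.4% of its WT_UV UMIs in 10 cells. Lpl, lipoprotein lipase, was lower after UVB and lowest in RP_UV, at 306, 124 and 32.7 CPM, and so was Cp of the iron list, at 217, 86.5 and 33.8 CPM. Clec4b1, a C-type lectin, had the same order of libraries, at 132, 40.7 and 13.7 CPM, and Ckb, a creatine kinase, was at 154, 60.6 and 72.8 CPM. Plac8 of the recruited monocyte list was at 257, 40.7 and 167 CPM, low in WT_UV alone. Cd209e and Ccdc152 were highest in WT_UV, at 32.4, 104 and 45.4 CPM and at 56.2, 159 and 42.5 CPM. Ctla2a reached 142 CPM in RP_UV, but 1 cell held 81.7% of those UMIs.

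The other lists differed as follows. Over all genes, 1.77% were 2-fold higher and 1.68% lower in WT_UV than in WT_Ctrl, and 2.17% and 2.35% in RP_UV against WT_UV. Interferon-stimulated genes were lower in WT_UV than in WT_Ctrl in 4 of 11 cases (median log2 -0.77, or -0.46 in thinned cells). Ifit2 was at 39.7, 7.47 and 17.2 CPM, and 1 of 10 genes of this list, Isg15, was higher in RP_UV than in WT_UV. Complement genes at the minimum numbered 10, of which 0 were past 2-fold between WT_UV and WT_Ctrl. Hmox1 was highest in RP_UV (1064 CPM), while the iron exporter gene Slc40a1 was at 24.5, 26.4 and 8.18 CPM. Of 9 p53 targets, 2 were higher and 2 lower in RP_UV than in WT_UV, with Gdf15, a stress-induced cytokine, at 18.02, 18.3 and 88.2 CPM. Proliferation genes were sparse: Mki67 was at 12.97, 17.3 and 7.65 CPM and was found in 1.41%, 1.37% and 1.13% of thinned Lyve1-positive cells.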

How the data were processed

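For each of 3 libraries, the authors deposited unnormalized UMI counts, made with Cell Ranger 6.1.1 per the file headers and build mm10 per the labels and restricted to called cells; 32285 genes were listed. Cells were kept with under 10% mitochondrial UMIs, more than 200 genes and fewer than 4000 genes (6000 in WT_UV), as in the methods of the study. Doublets were not called; excluding T cell and keratinocyte UMIs removed mixed barcodes in part. The members and gene lists were chosen with earlier results of these data known.

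Lyve1-positive and Lyve1-zero UMIs were summed per library and compared with edgeR 4.0.16 (quasi-likelihood, TMM, filterByExpr, Benjamini-Hochberg adjustment over all genes tested, library as a block, since both classes come from the same capture), tested on simulated counts first. Replicate numbers pair nothing here, because each group is 1 library. Log2 values between libraries add 1 CPM; folds do not. Folds have exact conditional binomial intervals of 95%, CPM exact Poisson intervals, and shares exact binomial intervals. Thinning drew 2000 UMIs per cell and left out shallower cells (37, 5 and 25 Lyve1-positive cells of WT_Ctrl, WT_UV and RP_UV). Shares of cells with a UMI and class II UMIs per cell kept the Lyve1-positive cells of the full-depth gate. Thinned folds, list medians and test counts applied the Lyve1 gate again after thinning. That left 170, 118 and 313 Lyve1-positive cells in the same order, so those values differ in cells as well as in depth.

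Named genes were list and marker genes, the 10 highest and 10 lowest that passed the test with at least 50 CPM in a class and 1 direction in 3 libraries, and the 8 highest and 8 lowest by log2 per contrast among genes of at least 100 CPM, leaving out mitochondrial, ribosomal, Gm and Rik genes; some of them are not reported here. Alternatives were DESeq2 1.42.0, other scaling, no filter, no block, another comparator, thinning, 1 gene limit, stricter gates and leaving out each library; leaving out cells with S100a8 or S100a9 UMIs was chosen after seeing the data. Python 3.11.15 and R 4.3.3 were used.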

Additional observations from a re-analysis of the deposited data

Results flagged for a closer look

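The following genes had folds in opposite directions in Lyve1-positive and Lyve1-zero macrophages. With 1 library per group the difference between the classes was not tested.

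In RP_UV over WT_UV, immediate early genes were higher in Lyve1-positive cells and lower in Lyve1-zero cells: the fold was 1.90 and 0.781 for Fos, 2.12 and 0.598 for Fosb, 2.60 and 0.706 for Atf3, and 1.46 and 0.725 for Dusp1, a phosphatase that ends kinase signals. In the cells that were still Lyve1-positive after thinning to 2000 UMIs, the log2 was 0.56 for Fos, 0.87 for Fosb, 1.38 for Atf3 and 0.09 for Dusp1. Plac8 had 4.11 in Lyve1-positive and 0.676 in Lyve1-zero cells, and Rgs1, a regulator of G protein signalling, 2.27 and 0.465. Enpp2 was the reverse, with 0.600 and 2.04. The mast cell protease Mcpt4 had 1.79 and 0.558.

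In WT_UV over WT_Ctrl, 3 genes were higher in Lyve1-positive and lower in Lyve1-zero cells. Cd209d had 1.71 and 0.759, Igf1 1.38 and 0.469, and the chemokine gene Ccl8 2.18 and 0.487. Ccl8 had a log2 of -0.08 in the cells that were still Lyve1-positive after thinning. The resident identity list to which Cd209d and Igf1 belong had a median log2 of -0.04 in Lyve1-positive cells. Cebpb, a factor of inflammatory and stress responses, had 0.682 and 2.73, and the clock gene Per1 0.460 and 1.96.

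In RP_UV over WT_Ctrl, Fcna had 0.684 in Lyve1-positive and 1.497 in Lyve1-zero cells. The keratin Krt1 had 2.30 and 0.638, with a log2 of 0.11 in thinned Lyve1-positive cells.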

How the results depend on the processing

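The direction of the MHC class II, Retnla, Hal, Ccl2, Ccl7, Cxcl2, Saa3, Dbp and Egr1 differences of RP_UV from WT_UV was the same under each alternative run. Share of macrophages, genes past 2-fold and test calls moved as follows. The median log2 of WT_UV over WT_Ctrl lay between -1.01 and -0.56 for MHC class II genes and between -0.10 and 0.52 for immediate early genes.

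The Lyve1-positive share was 10.5%, 4.63% and 13.4% (WT_Ctrl, WT_UV, RP_UV) after thinning, 11.5%, 10.7% and 17.1% with at least 3 Lyve1 UMIs, and 6.03%, 7.08% and 10.6% of all kept cells. It was 15.5% in WT_UV and 26.2% in RP_UV with 5 of 7 macrophage genes, 12.2% in WT_UV with a limit of 4000 genes in every library, and 26.3% in RP_UV with cells of other lineages left out.

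Genes past 2-fold after thinning, where sums hold few UMIs, numbered 645 higher and 539 lower in WT_UV over WT_Ctrl, 699 and 695 in RP_UV over WT_UV, and 616 and 520 in RP_UV over WT_Ctrl. With a minimum of 100 CPM they numbered 29 and 28, 44 and 47, and 102 and 65. With a limit of 4000 genes, 65 were lower in WT_UV than in WT_Ctrl, and 282 were higher and 308 lower in RP_UV than in WT_UV.

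In edgeR without the library as a replicate block, 0 genes passed, 0 of them higher and 0 lower, with 1230 at an unadjusted p under 0.05. No filter gave 2430 (1494 lower), thinning 597 (252 higher and 345 lower), and DESeq2 989. Leaving out 1 library gave 480 to 1673 genes, 179 to 745 higher and 301 to 928 lower: 480 without RP_UV, 687 without WT_UV and 1673 without WT_Ctrl.

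Several genes turned direction, and the cause was not tested. After thinning, the log2 was -1.98 for Ctla2a and -0.08 for Ccl8 (WT_UV over WT_Ctrl), 0.04 for Ccr2 and -0.22 for Il10 (RP_UV over WT_Ctrl), and -1.63 for Cpa3 and -0.37 for Cma1 (RP_UV over WT_UV). With a limit of 4000 genes it was 0.39 for Ear2 and 2.28 for Mmp12 in RP_UV over WT_UV, and -0.24 for Mmp12 in WT_UV over WT_Ctrl. With cells of other lineages left out it was 0.71 for Ear2 and 1.94 for Mmp12 in RP_UV over WT_UV, -0.05 for Mcpt4 in RP_UV over WT_Ctrl, and 0.09 for Krt10 against Lyve1-zero cells. With S100a8- or S100a9-bearing cells left out it was -0.72 for Il1b, -0.60 for Cpa3 and -0.34 for Cma1 in RP_UV over WT_UV, and -1.30 for Il1b and -0.03 for Mcpt4 in RP_UV over WT_Ctrl.

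Depth limits sparse genes most: at 1387308 UMIs, a count of 0 in the Lyve1-positive cells of WT_Ctrl allows up to 2.16 CPM.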

Other observations

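Lyve1-positive cells with and without Fcna differed in MHC class II within the wild-type libraries, which no comparison above uses. In cells thinned to 2000 UMIs, the 7 class II genes had a median of 19 UMIs per cell in the 156 Lyve1-positive cells of WT_Ctrl with an Fcna UMI and 43 in the 127 without. In WT_UV the medians were 5 in 130 cells and 15 in 235 cells, and in RP_UV 1 in 323 cells and 1 in 298 cells. These are values over cells of single libraries, with no test.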
